A study of Homo sapiens with 9 samples.

Results

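TGF-beta and activin are secreted dimeric ligands that act through the same intracellular route. A ligand brings together a type II and a type I serine/threonine kinase receptor, the type I receptor phosphorylates SMAD2 and SMAD3, and these bind SMAD4 and act on transcription in the nucleus. In epithelia the route is known both for growth arrest and for the switch to a mesenchymal state, and YAP1 can bind SMAD complexes. The 10 genes described here are the ligand genes TGFB1, TGFB2 and INHBA, the activin trap gene FST, the receptor and co-receptor genes TGFBR1, TGFBR2 and TGFBR3, the signal carrier gene SMAD3, and SKIL and PMEPA1, which encode inhibitors that the pathway itself induces. They were chosen by name, as the probe sets whose platform gene symbol is one of these symbols. A probe set is a group of short array probes read together as 1 signal. All 10 genes had probe sets, 32 of 54613 tested, among 19775 genes named on the array.

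The RNA came from HuCCT1, a human cholangiocarcinoma line (a bile duct cancer), which all samples share along with 1 serum-containing growth medium, and was read on 9 single-colour arrays. On 4 arrays the cells had been transfected with an empty vector. On the other 5 the vector overexpressed YAPS127A, a constitutively active YAP1 that escapes inhibition by the Hippo kinases. No other treatment is named, and the sources used here do not give the time from transfection to harvest, any selection of transfected cells or any clonal origin. Replicates carry numbers in the labels with no word on separate cultures, so p-values measure only the spread between these arrays, which may be technical. In bulk RNA, fewer cells that express a gene and less RNA per cell cannot be told apart.

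Levels are log2 signals, and all differences are YAPS127A minus empty vector. The array medians lay between 5.95 and 5.98. All 7 epithelial and cholangiocyte markers with a named probe set, KRT7 and KRT19 among them, were brighter than the median probe set. Of 8 fibroblast markers, 6 lay below that median (COL1A2, COL3A1, DCN, PDGFRA, PDGFRB and THY1). The summed fibroblast signal was 9.28 to 9.46 with the empty vector and 9.51 to 9.94 with YAPS127A, with LUM higher (+1.45) and COL1A1 lower (-0.70). The summed signal of 4 leukocyte markers was 7.97 to 8.22 and 6.74 to 6.90, with LYZ lower (-2.25), and that of 4 endothelial markers was 6.94 to 7.38 and 7.13 to 7.34. Whether these markers have a part in the results was not tested. The gap between the 3' and 5' actin control probe sets, a measure of RNA integrity and labelling, was 1.69 on empty vector replicate 3 and 1.58 on YAPS127A replicate 1, against 0.888 to 1.18 on the other arrays. The gap did not differ between the groups beyond its spread (2-sided exact permutation test, p = 0.444), and calls of named genes that were lost without these 2 arrays are given with the gene.

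The activin subunit gene INHBA, the activin trap gene FST and the co-receptor gene TGFBR3 were higher with YAPS127A. The type I receptor gene TGFBR1, SMAD3 at its brightest probe set, and both inhibitor genes were lower. TGFBR3 rose 2.90-fold, FST 1.76-fold and INHBA 1.27-fold. SKIL fell 1.33-fold, TGFBR1 1.28-fold, PMEPA1 1.20-fold and SMAD3, at its brightest probe set, 1.17-fold. Another SMAD3 probe set was called higher (+0.23, limma adjusted p = 0.03), so the count of SMAD3 as lower holds for its brightest probe set only. TGFB1, TGFB2 and TGFBR2 did not pass the test. Counted by the brightest probe set of each gene, 7 of 10 members passed (limma, Benjamini-Hochberg adjusted p under 0.05), 3 higher and 4 lower. Of all genes, 28.7% passed, 14.5% higher and 14.2% lower. All 10 members are brighter than the median probe set, and when dimmer probe sets were left out 46.5% of 12226 genes passed, 24% higher and 22.5% lower, with the members again at 7 of 10. In 8 of the 10 members the groups did not overlap, against 28.3% of all genes and 41.1% of these brighter genes. The median absolute log2 difference was 0.31 over the members, 0.13 over all genes and 0.19 over the brighter genes. The signed median was -0.07 over the members and 0.0048 over all genes.

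**Figure D1:**
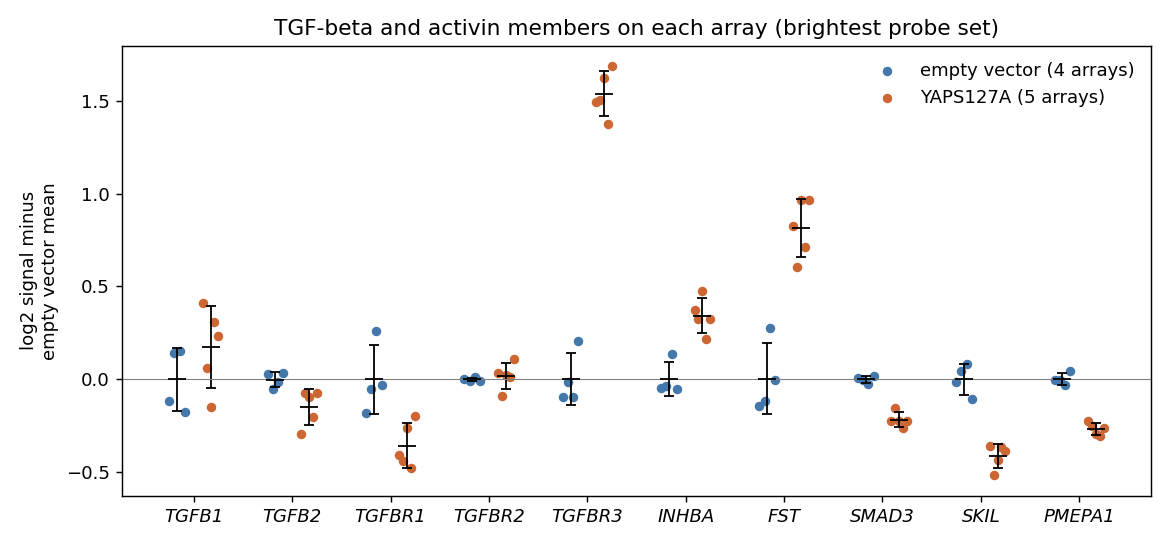
Log2 signal of each member's brightest probe set on each array, minus the mean of the 4 empty vector arrays. Points are arrays, horizontal marks are group means and bars are SDs. TGFBR3 and FST stand highest, and the 5 YAPS127A arrays of SKIL, PMEPA1, SMAD3 and TGFBR1 all lie below the empty vector arrays.

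INHBA encodes the beta A subunit, whose dimer is activin A. On the empty vector arrays its brightest probe set read 12.46, 12.47, 12.64 and 12.45, and on the YAPS127A arrays 12.88, 12.83, 12.98, 12.72 and 12.83. Every YAPS127A array lay above every empty vector array. The means were 12.51 ± 0.09 (SD, n = 4) and 12.85 ± 0.09 (SD, n = 5), and the difference was +0.34 (SE 0.07, limma adjusted p = 0.00394). A second probe set rose by 0.39 (SE 0.06, adjusted p = 0.0008), and the third, at +0.21, did not pass (adjusted p = 0.149).

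FST encodes follistatin, which binds activins and keeps them from their receptors. Its brightest probe set read 11.25, 11.28, 11.67 and 11.39 with the empty vector and 12.22, 12.00, 12.36, 12.11 and 12.36 with YAPS127A. The lowest YAPS127A array was therefore above the highest empty vector array, replicate 3. The means were 11.40 ± 0.19 (SD, n = 4) and 12.21 ± 0.16 (SD, n = 5), a rise of 0.81 (SE 0.10, adjusted p = 0.000136). The other 2 FST probe sets rose by 1.00 (SE 0.08, adjusted p = 4.81e-06) and 0.63 (SE 0.08, adjusted p = 8.71e-05), and neither had overlapping groups. On the same arrays FST rose more than INHBA, by 0.47 on the log2 scale (2-sided exact permutation test, p = 0.00794, the smallest that 4 arrays against 5 allow). This was 1 of 2 within-array comparisons tested, both chosen with the differences known. The Benjamini-Hochberg adjusted p over the 2 was 0.00794 for each. That adjustment does not correct for the choice, so this p is a description of the separation and no further support.

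Other genes for activin ligands and traps were read beside these. INHBB, which encodes the beta B subunit of activin B, rose by 1.18 (SE 0.13, adjusted p = 5.04e-05), from 7.52 ± 0.22 (SD, n = 4) to 8.70 ± 0.24 (SD, n = 5). FSTL3, a follistatin-like activin antagonist, rose by 0.49 (SE 0.11, adjusted p = 0.00585). Of 8 genes of activin and inhibin subunits and other ligands that use SMAD2 and SMAD3, INHBA and INHBB passed, both higher, and 6 did not. That is 25%, against 28.7% of all genes. Of 6 extracellular traps and antagonists with a named probe set, FST and FSTL3 passed, both higher, and 4 did not, or 33.3%. Both shares are near or below that of all genes.

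TGFBR3 encodes betaglycan, a co-receptor that presents TGF-beta, TGF-beta 2 above all, to the signalling receptors and also binds inhibins. Its brightest probe set read 9.93, 10.01, 9.93 and 10.23 with the empty vector and 11.52, 11.53, 11.65, 11.40 and 11.71 with YAPS127A. The gap between the groups was wider than the range within either group. The means were 10.02 ± 0.14 (SD, n = 4) and 11.56 ± 0.12 (SD, n = 5), a rise of 1.54 (SE 0.09, adjusted p = 1.94e-07). A dimmer probe set read 6.85, 6.76, 6.88 and 7.22 against 8.89, 8.40, 8.60, 8.72 and 8.98. It rose by 1.79 (SE 0.13, adjusted p = 1.42e-06), and both probe sets passed under all 18 alternatives that were run on single probe sets.

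TGFBR1 encodes the type I receptor kinase that phosphorylates SMAD2 and SMAD3. Its brightest probe set read 11.37, 11.50, 11.81 and 11.52 with the empty vector and 11.14, 11.11, 11.29, 11.07 and 11.35 with YAPS127A. The groups did not overlap, but the lowest empty vector array, at 11.37, and the highest YAPS127A array, at 11.35, were close. The means were 11.55 ± 0.19 (SD, n = 4) and 11.19 ± 0.12 (SD, n = 5), and the difference was -0.36 (SE 0.10, adjusted p = 0.017). Without the 2 arrays of the largest actin gap it was -0.26 and no longer passed (adjusted p = 0.0748, with a range of 0.00122 to 0.0748 over 19 alternatives). A dimmer probe set at -0.32 passed (adjusted p = 0.0337) and lost its call under 10 of 17 alternatives (adjusted p from 0.00319 to 0.0922). These included the fit without the same 2 arrays (adjusted p = 0.0881) and 7 of the 9 fits without a single array, all but those without empty vector replicate 2 or YAPS127A replicate 3. The third, at -0.25, did not pass (adjusted p = 0.105), but it did without YAPS127A replicate 2 (-0.33, adjusted p = 0.0116, with a range of 0.0116 to 0.247 over 17 alternatives).

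TGFBR2, the type II receptor that binds TGF-beta first, read 12.88, 12.87, 12.89 and 12.87 with the empty vector and 12.91, 12.79, 12.90, 12.89 and 12.99 with YAPS127A. The groups overlapped, and the difference was +0.02 (SE 0.06, adjusted p = 0.894), with a 95% interval of -0.11 to 0.15. Its other probe set was at +0.0086 (adjusted p = 0.972). Relative to TGFBR1 on the same arrays, TGFBR2 was higher by 0.37 with YAPS127A (2-sided exact permutation test, p = 0.00794), with no overlap between groups. TGFBR2 hardly moved and the groups of TGFBR1 did not overlap, so this p repeats the separation of TGFBR1 and is no further support. The comparison was not rerun without the 2 arrays of the largest actin gap, where TGFBR1 did not pass. Among the other receptor genes, the co-receptor gene ENG rose by 0.53 (SE 0.06, adjusted p = 8.3e-05) at 1 of its 2 probe sets. ACVR1C and ACVR2B, a type I and a type II receptor of the activin branch, fell. ACVR1C was at -0.51 (adjusted p = 0.00231), with 1 of its 2 probe sets called. ACVR2B was at -0.33 (adjusted p = 0.0144), with 1 of its 3 called. ACVR1C read 3.42 ± 0.20 (SD, n = 4) with the empty vector, which is dimmer than 3 in 4 probe sets on any array (quartiles of 4.24 to 4.27) and near the background of the scale. ACVR2B no longer passed without the 2 arrays of the largest actin gap (adjusted p = 0.0639, with a range of 0.00743 to 0.0639 over 18 alternatives).

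The TGF-beta ligand genes among the members did not pass. TGFB1 read 7.70, 7.96, 7.97 and 7.64 with the empty vector and 8.23, 7.88, 7.67, 8.13 and 8.05 with YAPS127A. The groups overlapped, and the difference was +0.17 (SE 0.12, adjusted p = 0.358), with a 95% interval of -0.09 to 0.43. Its dimmer probe set was at +0.09 (adjusted p = 0.574).

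TGFB2 read 12.99, 12.91, 12.95 and 13.00 with the empty vector and 12.67, 12.89, 12.87, 12.76 and 12.89 with YAPS127A. All 5 YAPS127A arrays lay below the empty vector arrays, but the nearest values, 12.89 and 12.91, were close. The difference was -0.15 (SE 0.07, adjusted p = 0.131), with a 95% interval of -0.29 to -0.0065. Of its 5 probe sets, all had negative differences, from -0.35 to -0.04, and 1 passed (-0.35, SE 0.09, adjusted p = 0.0131). That call was lost with the median of neighbouring genes removed (-0.08, adjusted p = 0.544, with a range of 0.00136 to 0.544 over 18 alternatives). With the actin gap as a covariate 2 further probe sets passed (adjusted p = 0.0294 and 0.0343, the lowest of 18 alternatives that reached 0.407 and 0.629). The mean of the 5 probe sets, at -0.17, passed (SE 0.05, adjusted p = 0.0265). TGFB3, the third ligand gene of the family, fell from 7.10 ± 0.23 (SD, n = 4) to 6.24 ± 0.12 (SD, n = 5), by 0.87 on the log2 scale (SE 0.10, adjusted p = 8.69e-05). Its other probe set did not pass.

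SMAD3 gave opposite calls at different probe sets. The brightest read 13.65, 13.64, 13.62 and 13.66 with the empty vector and 13.42, 13.49, 13.42, 13.38 and 13.42 with YAPS127A. It differed by -0.22 (SE 0.05, adjusted p = 0.0107), with no overlap. The second brightest read 10.54, 10.62, 10.53 and 10.62 against 10.97, 10.81, 10.70, 10.80 and 10.74, also with no overlap but in the other direction (+0.23, SE 0.07, adjusted p = 0.03). Of the 4 SMAD3 probe sets, 2 are listed with the same transcript record in the platform annotation. These need not be the 2 with opposite calls. On the same arrays the second brightest moved against the brightest by 0.45 on the log2 scale, which is given with no test because the pair was chosen for its opposite calls.

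The remaining SMAD3 probe sets were at +0.20 (adjusted p = 0.214) and -0.33 (adjusted p = 0.341), and neither passed. The first of these passed without YAPS127A replicate 3 (+0.29, adjusted p = 0.0219, with a range of 0.0219 to 0.415 over 18 alternatives). The dimmest had its lowest values, 6.05 and 6.49, on YAPS127A replicate 1 and empty vector replicate 3, the 2 arrays with the largest actin gap. It passed with the gap as a covariate (-0.53, adjusted p = 0.00646, with a range of 0.00646 to 0.659 over 18 alternatives), and it was at -0.17 without YAPS127A replicate 1 and -0.18 without empty vector replicate 1. The call of the second brightest was lost under 9 of 18 alternatives, among them the fit without the 2 arrays of the largest gap (+0.17, adjusted p = 0.107, with a range of 0.0138 to 0.107). It was also lost in 6 of the 9 fits without a single array, all but those without empty vector replicate 4 or YAPS127A replicate 3 or 5. The mean of the 4 probe sets differed by -0.03 (SE 0.06, adjusted p = 0.77). The brightest probe set of SMAD3 was brighter than 99.3% of all probe sets and that of PMEPA1 brighter than 99.0%, a range in which array signals can be compressed, and whether this has a part in the sizes was not tested. No single direction can therefore be given for SMAD3. Of its partners, SMAD2 (-0.10, adjusted p = 0.377) and SMAD4 (-0.0032, adjusted p = 0.985) did not pass. ZFYVE9, which encodes the anchor protein that brings SMADs to the receptor, rose by 0.74 (SE 0.07, adjusted p = 1.79e-05). The co-activator gene CITED2 rose by 0.49 (SE 0.08, adjusted p = 0.000582), with 2 of its 3 probe sets called higher. The neighbours of ZFYVE9 on the chromosome were higher by 0.33 and those of CITED2 were at -0.41. With their median removed the rises were 0.40 (adjusted p = 0.00223) and 0.89 (adjusted p = 1.05e-05).

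**Figure D2:**
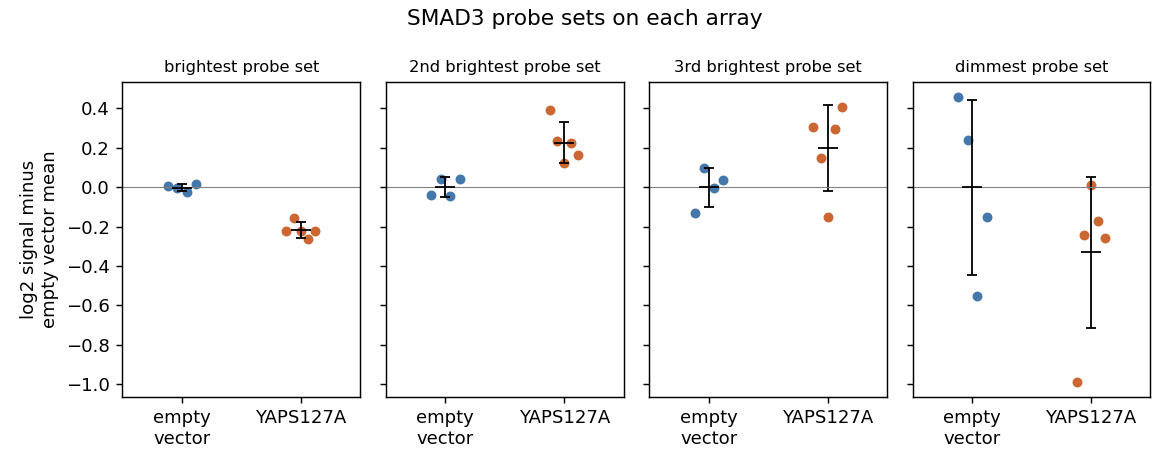
The 4 SMAD3 probe sets, ordered by brightness, as log2 signal minus the empty vector mean on each array (points), with group means and SDs. The brightest is lower and the second brightest is higher on all 5 YAPS127A arrays, and the dimmest spreads most within groups.

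SKIL encodes SnoN, which binds SMAD complexes at DNA and represses them, and it is itself induced by TGF-beta. Its brightest probe set read 11.31, 11.37, 11.41 and 11.22 with the empty vector and 10.97, 10.81, 10.89, 10.96 and 10.94 with YAPS127A. The groups did not overlap, with means of 11.33 ± 0.08 (SD, n = 4) and 10.91 ± 0.07 (SD, n = 5). The difference was -0.41 (SE 0.06, adjusted p = 0.000589). All 5 SKIL probe sets fell, by 0.41 to 0.82 on the log2 scale, and 4 of them had groups without overlap. The largest fall was that of a probe set that read 7.79, 7.86, 7.18 and 7.70 against 6.47, 6.74, 6.91, 6.91 and 7.05 (-0.82, SE 0.15, adjusted p = 0.00152). The 3 brightest probe sets passed under all 18 alternatives, and the 2 dimmest lost their calls under 8 of 18 and 7 of 17. Of the 9 fits without a single array, the fourth in brightness lost its call in 6, those without empty vector replicate 1, 2 or 4 or YAPS127A replicate 2, 3 or 4 (adjusted p up to 0.116). The dimmest lost it in 5, those without empty vector replicate 4 or YAPS127A replicate 1, 2, 3 or 5 (adjusted p up to 0.0714), and without the 2 arrays of the largest actin gap (-0.67, adjusted p = 0.0536).

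PMEPA1 encodes a membrane protein that keeps SMAD2 and SMAD3 from the activated receptor, and it too is induced by TGF-beta. Its brightest probe set read 13.45, 13.45, 13.42 and 13.50 with the empty vector and 13.23, 13.20, 13.16, 13.15 and 13.19 with YAPS127A. The spread within each group was small, with means of 13.45 ± 0.03 (SD, n = 4) and 13.19 ± 0.03 (SD, n = 5), and the difference was -0.27 (SE 0.05, adjusted p = 0.00345). The next probe sets in brightness differed by -0.40 (SE 0.05, adjusted p = 0.00022) and -0.58 (SE 0.08, adjusted p = 0.000175). All 3 probe sets fell with no overlap and passed under all 18 alternatives, and the fall was smaller the brighter the probe set.

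**Figure D3:**
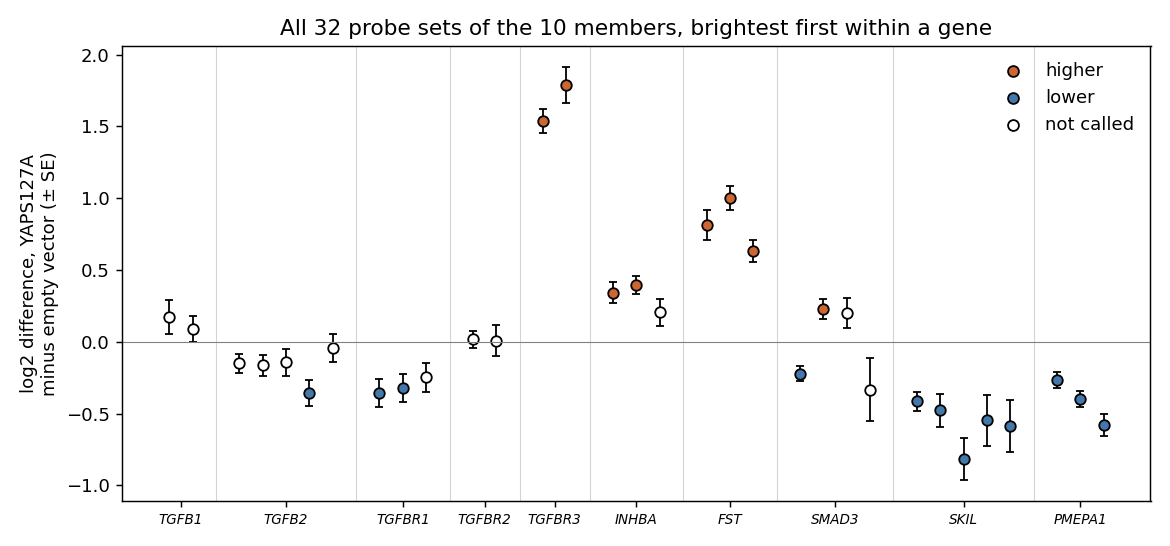
Log2 difference with its SE for all 32 probe sets, grouped by gene and ordered by brightness within a gene, with filled points for those that passed the test. All probe sets of TGFBR3 and FST are higher, all of SKIL and PMEPA1 are lower, and those of SMAD3 lie on both sides of 0.

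Counted by probe set, 20 of the 32 passed, 8 higher and 12 lower. Over all probe sets tested, 23.9% passed, 11.9% higher and 12% lower. With probe sets dimmer than the median left out, 29 of the 32 remained and 18 of these passed, 8 higher and 10 lower. The share over all brighter probe sets was not counted. Counted by gene it was 46.5%, so brightness has to be kept in mind when 20 of 32 is set against 23.9%. Probe sets of a gene read the same RNA and are not replicates. TGFBR3, FST, SKIL and PMEPA1 were the 4 members for which every probe set passed, each in 1 direction. In the other 6 members at least 1 probe set did not pass.

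For these 4 members the stretch before the start site is shown, as RefSeq places it in GRCh38.p14, to set the members that rose and fell at every probe set side by side. The window of TGFBR3 lies inside its annotated gene and is not shown, and for PMEPA1 the window outside the annotated gene is shown, 1 of its 4. Each is the 250 bases before a start site on the gene's own strand, 5′ to 3′: FST at chr5:53480379-53480628 (plus strand), SKIL at chr3:170357465-170357714 (plus strand) and PMEPA1 at chr20:57711473-57711722 (minus strand). Capitals mark matches, on either strand, to GGAATG (the core motif of TEAD, the DNA-binding partners of YAP1), CAGAC (a SMAD half-site) or TGANTCA (the AP-1 motif).
FST: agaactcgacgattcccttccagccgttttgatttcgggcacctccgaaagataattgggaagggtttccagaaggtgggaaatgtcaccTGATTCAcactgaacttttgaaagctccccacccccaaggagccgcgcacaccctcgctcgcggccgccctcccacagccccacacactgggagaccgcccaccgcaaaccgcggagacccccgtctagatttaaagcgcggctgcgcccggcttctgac
SKIL: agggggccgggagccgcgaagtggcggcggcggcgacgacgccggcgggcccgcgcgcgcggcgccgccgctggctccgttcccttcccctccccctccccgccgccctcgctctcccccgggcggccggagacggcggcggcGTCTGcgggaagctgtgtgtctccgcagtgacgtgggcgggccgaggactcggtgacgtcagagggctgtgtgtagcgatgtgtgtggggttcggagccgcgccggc
PMEPA1: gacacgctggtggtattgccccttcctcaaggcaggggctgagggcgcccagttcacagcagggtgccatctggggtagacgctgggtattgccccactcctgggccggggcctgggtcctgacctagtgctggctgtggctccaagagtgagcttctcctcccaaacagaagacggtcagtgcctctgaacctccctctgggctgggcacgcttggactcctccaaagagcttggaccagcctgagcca

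FST, which rose, held 1 AP-1 match, starting 160 bases before the start site. SKIL, which fell, held 1 SMAD half-site, starting 107 bases before it, and the PMEPA1 window shown held no match to any of these letters. Other PMEPA1 windows, not shown, held the SMAD half-site, starting 71 and 115 bases before their own start sites. Among 35116 windows of this length in the table, 11.9% held the TEAD motif, 38.0% the SMAD half-site and 6.57% the AP-1 motif. All 10 members are in the table, with 25 windows in all, of which 2 held the TEAD motif, 10 the SMAD half-site and 2 the AP-1 motif. Windows of 1 gene can overlap, no motif overlaps another in the windows shown, and a match is a description of the letters and not of binding.

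Genes near each other on a chromosome can move together, so the median difference of the 50 nearest genes brighter than the median is given beside each member. Neighbours lay higher by 0.42 around TGFBR3 on chromosome 1 and by 0.18 around INHBA on chromosome 7. They lay lower around TGFB2 (-0.27), in another part of chromosome 1, and around TGFBR2 (-0.12) on chromosome 3. Around the other 6 members they were between -0.06 and 0.04. With the neighbours' median removed on each array, TGFBR3 was higher by 1.12 (adjusted p = 1.37e-06) and FST by 0.85 (adjusted p = 6.86e-05).

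INHBA was then at +0.17 and did not pass at its brightest probe set (adjusted p = 0.111, with a range of 0.000474 to 0.111 over 19 alternatives). Its second probe set still passed, at +0.22 (adjusted p = 0.0343, with a range of 0.00015 to 0.0343 over 18 alternatives). TGFB2 changed sign, to +0.12, and did not pass (adjusted p = 0.26, with a range of 0.0265 to 0.274). SKIL (-0.39, adjusted p = 0.0022), TGFBR1 (-0.35, adjusted p = 0.0157), SMAD3 (-0.26, adjusted p = 0.00524) and PMEPA1 (-0.24, adjusted p = 0.0092) kept their calls. Whether the neighbours' shift has a part in these differences was not tested.

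**Figure D4:**
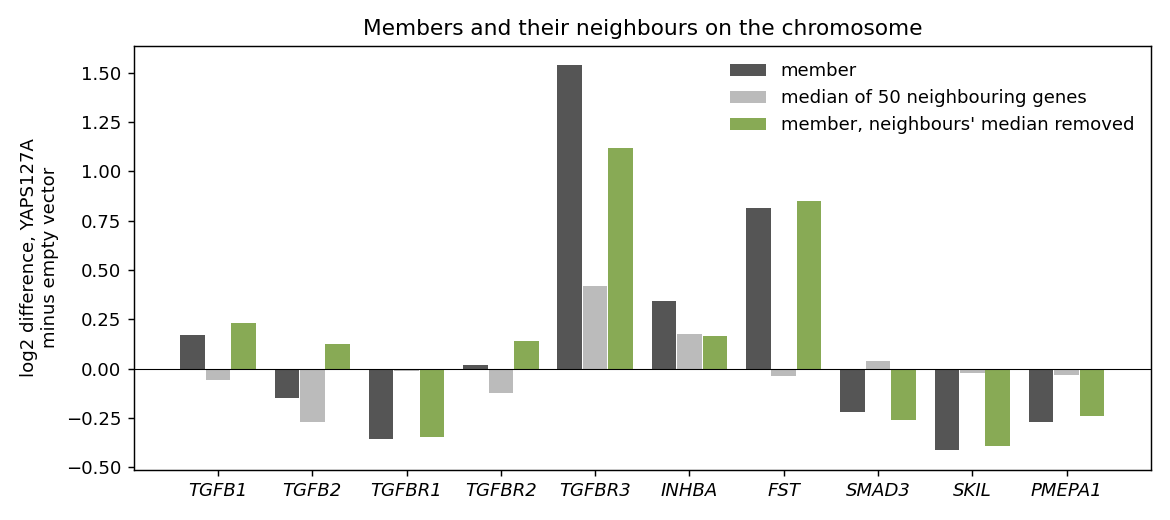
Log2 difference of each member's brightest probe set, the median log2 difference of its 50 neighbouring genes, and the member's difference after that median was removed on each array. The neighbours of TGFBR3 and INHBA lie higher and those of TGFB2 lower, while those of SKIL, PMEPA1, FST, TGFBR1 and SMAD3 lie near 0.

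Other genes of the pathway were counted in 8 lists by role, each gene at its brightest probe set. Beside the members, 72 listed genes could be read, of which 10 were higher, 18 were lower and 44 missed the threshold, so that 38.9% passed, against 28.7% of all genes. With dimmer probe sets left out, 29 of 57 (50.9%) passed, against 46.5% of all genes, so the share was near that of all genes read the same way. Their median difference was -0.04, and that of all genes was 0.0048. With the members included, 13 of 82 listed genes were higher and 22 lower at the brightest probe set. When each gene's probe sets were averaged, 18 of the 82 were higher and 21 lower, so the tilt to lower depends on the probe set read. In the machinery that stores and releases latent TGF-beta, 1 of 10 genes rose and 3 fell, or 40.0%. LTBP1, which anchors latent TGF-beta in the matrix, fell by 2.76 (SE 0.13, adjusted p = 5.42e-08), from 9.35 ± 0.10 (SD, n = 4) to 6.59 ± 0.29 (SD, n = 5). ITGB8, a subunit of an integrin that activates latent TGF-beta, fell by 1.51 (SE 0.16, adjusted p = 3.57e-05), with 4 of its 5 probe sets called. FURIN, a protease that cleaves the ligand precursors, rose by 0.46 (SE 0.10, adjusted p = 0.00604).

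Among inhibitors and feedback genes beside SKIL and PMEPA1, 3 of 10 fell and none rose at the brightest probe set. That share, 30%, is near the 28.7% of all genes. FKBP1A did not pass at its brightest probe set (+0.14, limma adjusted p = 0.123), but 3 of its 4 probe sets were called higher. WWP1, a ubiquitin ligase that acts on the receptors and SMADs, fell by 0.55 (SE 0.08, adjusted p = 0.000376). PPM1A, a phosphatase of SMAD2 and SMAD3, fell by 0.40 (SE 0.06, adjusted p = 0.000568). The neighbours of WWP1 lay lower as well (-0.35), and with their median removed WWP1 was at -0.20 and did not pass (adjusted p = 0.0697, with a range of 0.000138 to 0.0697). PPM1A was then at -0.21 (adjusted p = 0.0353), with neighbours at -0.20, and 2 of its 6 probe sets fell. SMAD7, the inhibitory SMAD induced by TGF-beta, was at +0.17 (adjusted p = 0.135), and SKI, the relative of SKIL, at -0.26 (adjusted p = 0.0853).

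Transcripts known to be induced by TGF-beta moved both ways. Of the 26 that could be read, each at its brightest probe set, 4 were higher, 9 were lower and 13 missed the threshold, with a median of -0.05. Thus 50% passed, against 28.7% of all genes and 46.5% of genes with dimmer probe sets left out. The share of these transcripts with dimmer probe sets left out was not counted. HMGA2, counted as lower, had 2 of its 9 probe sets called higher and 1 called lower. TAGLN and TPM1, counted as missing the threshold, had other probe sets that passed. For TAGLN 2 of 3 were called higher, and for TPM1 1 of 6 was called higher and 1 lower. The cytokine gene IL11 fell by 2.04 (SE 0.09, adjusted p = 1.96e-08), and it had read 11.04 ± 0.17 (SD, n = 4) with the empty vector. The fibronectin gene FN1 fell by 0.79 (SE 0.07, adjusted p = 9.48e-06), at 5 of its 7 probe sets. The smooth muscle actin gene ACTA2 rose by 0.89 (SE 0.09, adjusted p = 2.09e-05) at 1 of its 3 probe sets, with neighbours higher by 0.36 and a rise of 0.53 when their median was removed (adjusted p = 0.0007). The ligand gene WNT5A rose by 0.66 (SE 0.12, adjusted p = 0.00132).

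**Figure D5:**
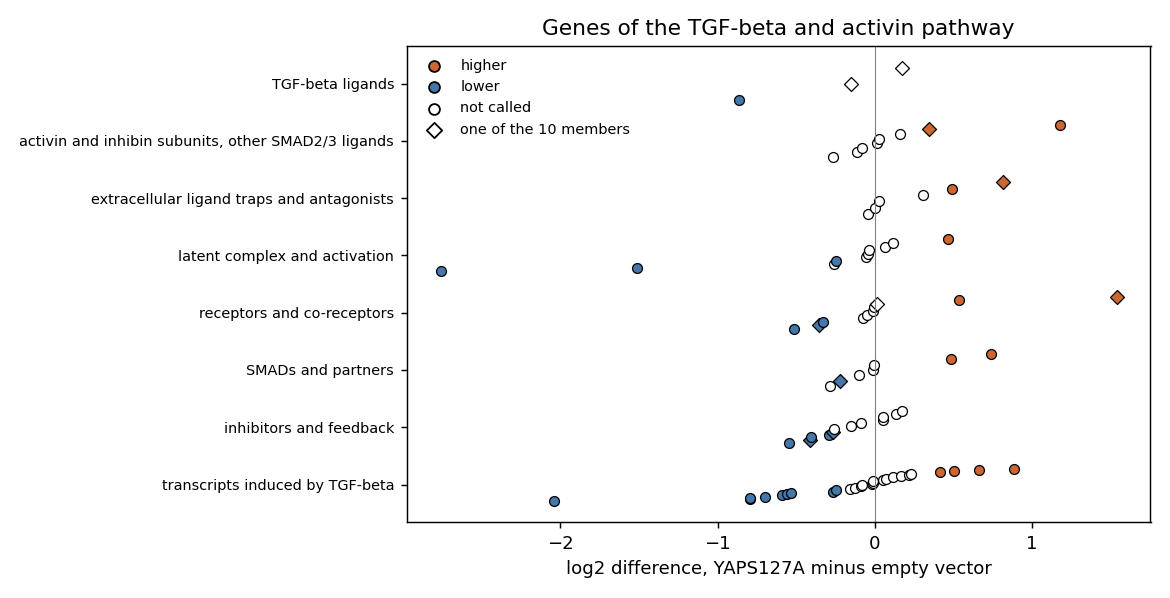
Log2 difference of the brightest probe set of each gene in the 8 pathway lists, with diamonds for the 10 members and filled points for genes that passed the test. The lowest value is that of LTBP1 (-2.76) in the latent complex list and the highest that of TGFBR3 (+1.54) among the receptors.

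Over the 9 arrays, the genes whose profile lay closest to that of TGFBR3 were ARID5B, FRMD4A and SDC2. Likeness was the root mean square distance after each gene's empty vector mean was subtracted, and it was 0.08, 0.11 and 0.12 in log2 units. These 3 genes differed by +1.49, +1.51 and +1.48. For SKIL, the member with the lowest difference, the closest were ORC5, GTF2H5 and AGO2, at distances of 0.05, 0.06 and 0.06 and with differences of -0.37, -0.39 and -0.45. With 2 groups of arrays such a distance largely follows the size of the group difference.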

How the data were processed

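Total RNA was amplified, labelled with biotin and hybridised to single-colour arrays, per the labels' protocols. The deposited values run from 1.62 to 15.0 and were read as log2 signals, a unit that no header gives. The sources used here do not name the authors' background correction or normalization. The table held 0 columns of other samples. Without its 62 control probe sets, 54613 remained for the test, of which 41091 carry 1 gene in the platform annotation, 1801 several and 11721 none. Gene IDs of 41037 matched the RefSeq table of GRCh38.p14, used for symbols and gene order. A gene was read at its brightest probe set, by the mean of the 9 arrays.

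Groups were compared over all probe sets by lmFit and eBayes of limma 3.58.1 in R 4.3.3, with no covariate and Benjamini-Hochberg adjustment, with a threshold of 0.05 and 11.4 total degrees of freedom. Errors of differences are SEs and errors of levels SDs. Precision is limited by the number of arrays. The members, the lists, the within-array comparisons and the alternatives were chosen with earlier results of these data known. Beside the members, the text names for each list up to 2 genes per direction with the lowest p-values, and 3 genes for each of the highest and lowest members by profile. SMAD2, SMAD4, SMAD7, SKI, FKBP1A, HMGA2, TAGLN, TPM1 and the markers were named after their values were seen. The 50 neighbours are genes brighter than the median, in chromosome order. The fit was tested on simulated data for this comparison over 54613 probe sets. It recovered 62% of 50 probe sets changed by 0.5 and 2% of 50 changed by 0.25. Far fewer probe sets were changed there than the 13052 called in the data, which makes the adjusted threshold stricter. These shares therefore do not give the sensitivity of the comparison reported here. The labels do not say whether the replicate numbers pair the arrays, and the groups were compared as unpaired. Figures used matplotlib 3.10.9 in Python 3.11.15.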

Additional observations from a re-analysis of the deposited data

Results flagged for a closer look

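INHBA on empty vector replicate 3 read 12.64, far from the other empty vector arrays at 12.45 to 12.47, and it was still below all YAPS127A arrays. Among 20 groups of arrays examined in this way, 1 was flagged, which is what chance alone gives for about 1 in 20 groups. Without that array the difference of INHBA was +0.39. That array also had the largest actin gap, 1.69, and whether the gap has a part in the value was not tested.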

How the results depend on the processing

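The direction of all members but TGFB2 and TGFBR2 was the same under 19 alternatives, and the calls of TGFBR3, FST, SKIL and PMEPA1 held under all 19. TGFB2 was at +0.12 with the neighbours' median removed, and it passed with trend and robust eBayes (adjusted p = 0.0387) and when its probe sets were averaged (adjusted p = 0.0265). TGFBR2 was at -0.0074 without YAPS127A replicate 5, with a range of -0.0074 to 0.0423 over arrays left out in turn. The replicate numbers are shared between groups but same-numbered arrays did not deviate together (correlations of -0.25 to 0.04 over 4 numbers). With the replicate number as a block (replicate block, 8 arrays), TGFBR2 was at -0.0074, 4459 genes, 6 of 10 members and 14 of 32 member probe sets passed, and SMAD3 (adjusted p = 0.0706) and the TGFB2 probe set that had passed (-0.34, adjusted p = 0.0795) were no longer called. The counts of genes, members, member probe sets and pathway genes stayed within 1.5 times the values reported under the alternatives run. Over arrays left out in turn, 4861 to 5464 genes, 7 members each time and 17 to 19 member probe sets passed. Of the 82 listed pathway genes, members included, 33 to 38 then passed, against 35 with all arrays. Without both arrays of the largest actin gap, chosen after the data were seen, 6 members passed. No pseudocount was needed for log2 values. In simulated data 2% of changes of 0.25 were called, under a stricter adjusted threshold than in the data, so that share does not carry over. Differences near that size went both ways here. The brightest SMAD3 probe set passed at -0.22, and the dimmest TGFBR1 probe set did not at -0.25. Whether signals are compressed at the bright end of the scale was not tested.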
